A study of Mus musculus with 6 samples.

Results

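The secretagogue receptors and Gq proteins described here are 10 genes, taken by their symbols from a table of 36333 gene rows. They comprise 6 receptor genes (Cckar, Cckbr, Chrm1, Chrm3, Sctr and Vipr1), 3 genes for alpha subunits of the Gq class (Gnaq, Gna11 and Gna14) and Plcb1, the gene of a phospholipase C. The counts come from RNA sequencing of pancreas from 6 wild-type mouse samples. The saline group held 3 samples taken after intraperitoneal saline, and the cerulein group held 3 taken after intraperitoneal cerulein, in 10 injections of 200 µl (200 µg/kg/h), with tissue collected once the last injection was complete. The labels give no strain, sex or age and do not say that the samples are separate animals, so p-values measure only the spread between these samples. Values listed for the 3 samples of a group stand in the order of replicates 1, 2 and 3. The design asks which transcripts differ early in acute pancreatitis.

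Pancreatic acinar cells secrete digestive enzymes when hormones and nerves act on receptors in their basolateral membrane. The cholecystokinin receptor CCKAR and the muscarinic receptor CHRM3 couple to Gq-class proteins, which switch on phospholipase C beta, so that inositol trisphosphate releases calcium and diacylglycerol activates protein kinase C. Secretin and vasoactive intestinal peptide act through SCTR and VIPR1, which couple mainly to Gs and raise cyclic AMP. Cerulein is a cholecystokinin analogue that acts on CCKAR, and doses above those that give the highest secretion cause acute pancreatitis in mice.

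Libraries held 5335117 to 7610775 counts. All 10 genes had counts, and 7 of them passed the filter on low counts and were tested. Cckbr, Chrm1 and Sctr did not pass it, and their values are given without a call. Levels are CPM, the counts of a gene relative to the library size after TMM scaling. The threshold for calling a gene was an adjusted p of 0.05 in edgeR's quasi-likelihood test, with the adjustment made over all 12441 genes tested. Acinar markers were the most abundant of 10 marker lists in all 6 libraries. All 17 of them had counts and were tested, and 15 were called lower and 1 (Ptf1a, named after its value was seen) higher after cerulein. Summed over the markers, levels came to 415045 CPM in saline replicate 1, 752538 and 756792 CPM in saline replicates 2 and 3, and 221825 to 281801 CPM in cerulein. Saline replicate 1 also had the highest summed level of 8 neutrophil markers, 203 CPM against 16.4 and 38.1 CPM in the other saline libraries and 43.1 to 110 CPM in cerulein. The 8 monocyte and macrophage markers summed to 152 to 340 CPM in saline and 501 to 559 CPM in cerulein, and 4 of them were called higher. The 10 duct markers summed to 788 CPM in saline replicate 1, 1512 and 1597 CPM in saline replicates 2 and 3, and 1389 to 1772 CPM in cerulein. Of them, 5 were called higher and 2 lower (median log2 fold change 0.88). The 12 islet markers summed to 827 CPM in saline replicate 1, 1945 and 1938 CPM in saline replicates 2 and 3, and 1026 to 1694 CPM in cerulein. Of the 11 islet markers tested, 2 were called lower. The part of these cell types in the results below was not tested. In bulk tissue, fewer cells of a type and less RNA per cell cannot be told apart.

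After cerulein, 4 of the 7 tested members were lower and 1 was higher, where 27.1% of all genes tested were called lower and 28.7% higher (3373 and 3574 genes). That split was 1449 lower and 5181 higher with library size alone, and 4190 and 2895 with upper-quartile factors. Cckar fell most, followed by Gna14, Vipr1 and Plcb1, each of them at least 2-fold. Chrm3 rose slightly, a call lost in 8 of 15 alternatives, and Gnaq and Gna11 were not called. The median log2 fold change of the 7 was -1.52. The levels of the groups did not overlap for 5 of the 7, against 63.0% of all genes tested. The 4 genes called lower were called lower in every alternative run, including that without saline replicate 1.

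**Figure D1:**
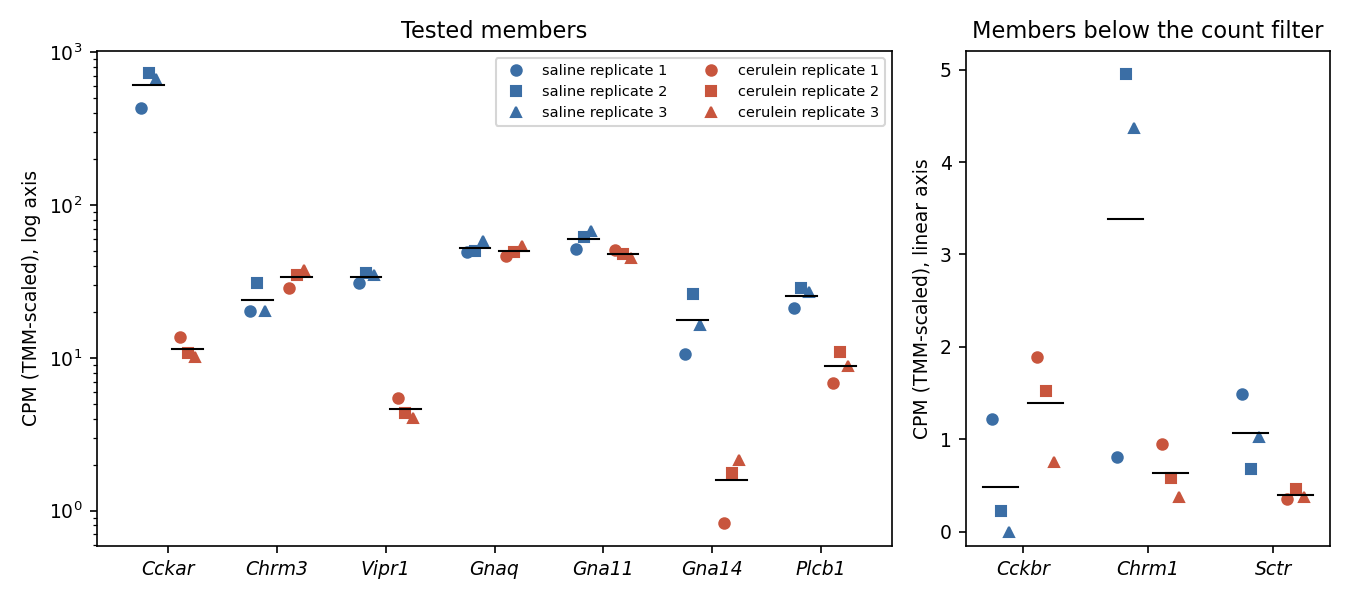
Level of each gene in each library (CPM after TMM scaling), with the 7 tested genes on a log axis at left and the 3 genes below the count filter on a linear axis at right. Points are libraries and black lines are group means, and the Cckar points sit at 432 CPM or above in saline and at 13.6 CPM or below after cerulein.

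Cckar encodes the receptor through which cholecystokinin and cerulein act on acinar cells, at chr5:53698485-53707704 on the minus strand (GRCm38.p6). It had 3192, 3241 and 2586 counts in saline and 115, 92 and 80 counts after cerulein. As scaled levels these were 432, 730 and 665 CPM in saline and 13.6, 10.8 and 10.1 CPM after cerulein. The lowest saline library was saline replicate 1, and it still stood far above every cerulein library. Cckar fell by 5.72 ± 0.27 on the log2 scale (SE, adjusted p = 9.70e-09, edgeR), a 52.9-fold lower level. Ordered from the steepest fall, it was 27th of the 12441 genes tested.

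The fall of Cckar was larger than that of all but 1 of the 17 acinar markers. Of the 17 acinar markers, 1 had a lower log2 fold change than Cckar, the amylase gene Amy2a5, at -7.05 and named after its value was seen, and the median of the markers was -1.55. Amy2a5 is 1 of several amylase genes and had 2410 counts over the 6 libraries. Amy2b, also named after its value was seen, had 123907. How reads were shared among the amylase genes was not tested. Within a library, the log2 ratio of Cckar counts to the summed acinar marker counts does not depend on library scaling. It was -9.91, -10.01 and -10.15 in saline and -14.00, -14.67 and -14.41 after cerulein. The 3 saline libraries therefore held nearly the same ratio although their acinar marker levels differed, and all 3 cerulein libraries lay well below them. The difference was -4.34 (exact permutation test, two-sided, p = 0.1, and 3 against 3 allows no smaller one, adjusted p = 0.117 over 7 ratios).

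Cckbr, at chr7:105425676-105436339, encodes the other cholecystokinin receptor, which also binds gastrin and is best known from the stomach and brain. It had 9, 1 and 0 counts in saline and 16, 13 and 6 counts after cerulein, or 10 against 35 counts in all. Levels were 0 to 1.22 CPM in saline and 0.758 to 1.89 CPM after cerulein, and the groups overlapped because of saline replicate 1. With no filter on low counts its log2 fold change was 1.28 ± 0.68 (SE, adjusted p = 0.134, edgeR). Without saline replicate 1 it passed the filter and was called higher, at 3.33 ± 1.12 (adjusted p = 0.0160). No other alternative that tested Cckbr called it. A filter of CPM above 1 in at least 3 libraries gave 1.21 (adjusted p = 0.178). Dropping cerulein replicate 3 gave 1.51 (adjusted p = 0.143). The value was 0.88 (adjusted p = 0.354) when saline replicate 2 was dropped, and 0.78 (adjusted p = 0.400) when saline replicate 3 was. Cckar had the more counts of the pair in every library, 336 to 5173 times Cckbr in saline and 6.85 to 12.4 times after cerulein, with 0.5 added to each count. The log2 ratio differed by -7.53 (exact permutation test, two-sided p = 0.1, adjusted p = 0.117).

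The muscarinic receptors bind acetylcholine released by nerve endings, and CHRM3 is the main one on acinar cells. Chrm3, at chr13:9875486-10361062, stood at 20.3, 31.1 and 20.3 CPM in saline and at 28.5, 35.0 and 37.9 CPM after cerulein. Saline replicate 2 lay above cerulein replicate 1, so that the groups overlapped. The log2 fold change was 0.50 ± 0.20 (SE, adjusted p = 0.0464, edgeR), just inside the threshold. The call was lost in 8 of 15 alternatives, and without saline replicate 1 the value was 0.35, though it stayed above 0 in all of them. Chrm1, the other phospholipase-coupled muscarinic receptor among the members, at chr19:8664005-8683606, had 6, 22 and 17 counts in saline and 8, 5 and 3 after cerulein. Its level was 0.813, 4.96 and 4.37 CPM in saline and 0.379 to 0.947 CPM after cerulein, with saline replicate 1 inside the cerulein range. With no filter on low counts Chrm1 was called lower, at -2.22 ± 0.57 (SE, adjusted p = 4.24e-04, edgeR).

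The ratio of Cckar to Chrm3 turned over between the groups. Cckar had 21.2, 23.4 and 32.5 times the counts of Chrm3 in saline and 0.478, 0.309 and 0.268 times its counts after cerulein. The log2 ratio differed by -6.21, with groups that did not overlap (exact permutation test, two-sided p = 0.1, adjusted p = 0.117). Per kilobase of exon, Cckar made up 92.2%, 94.1% and 94.5% of the summed counts of the 6 receptors in saline. After cerulein its share was 36.3%, 28.9% and 27.4%. Chrm3 took 1.70% to 2.55% of that sum in saline and 44.8%, 55.3% and 60.5% after cerulein. Chrm3 was thus the most abundant of the 6 receptor transcripts per length in each cerulein library and Cckar in each saline library. These shares of the receptor sum were computed after the values were seen and are given without a test.

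**Figure D2:**
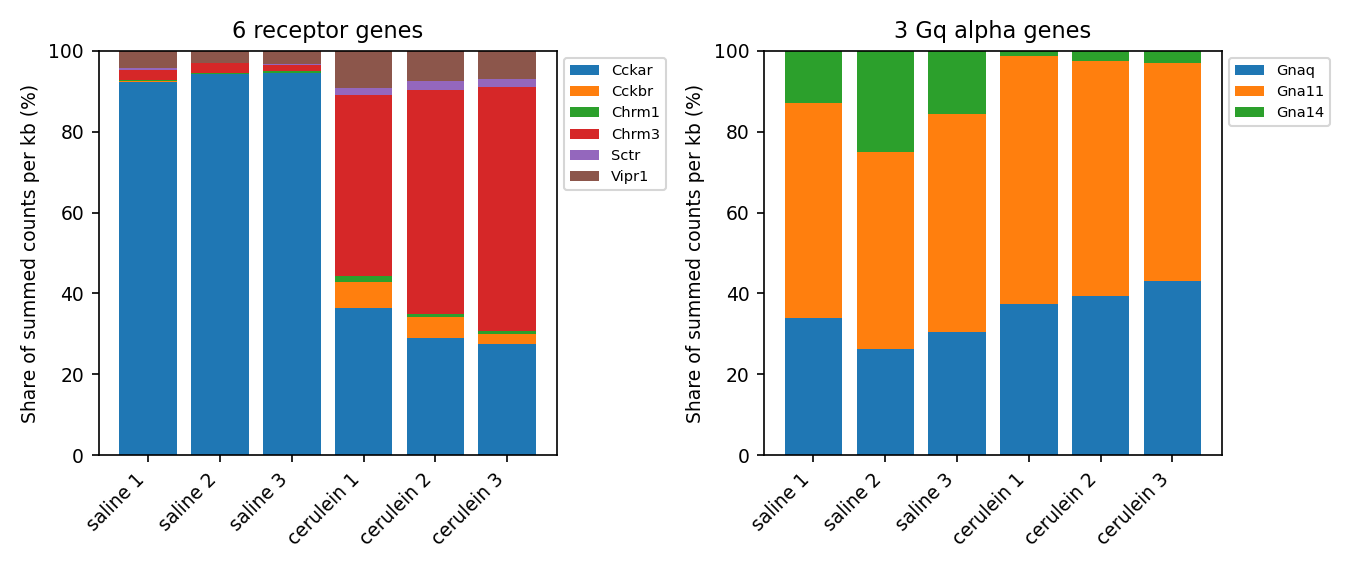
Share of each gene in the summed counts per kilobase of exon, for the 6 receptor genes (left) and the 3 Gq alpha genes (right), with 1 bar per library. Cckar falls from 92.2% or more of the receptor sum in saline to 36.3% or less after cerulein, while Gna14 falls from 13.0% or more of the alpha subunit sum to 3.07% or less.

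Vipr1 encodes VPAC1, a receptor for vasoactive intestinal peptide and for PACAP, at chr9:121642716-121672954. It stood at 31.1, 36.0 and 35.0 CPM in saline and at 5.44, 4.33 and 4.04 CPM after cerulein. The 6 libraries formed a high saline group and a low cerulein group with no overlap and little spread within either. Vipr1 fell by 2.88 ± 0.19 on the log2 scale (SE, adjusted p = 9.99e-08, edgeR). Sctr, the secretin receptor gene at chr1:120006879-120063539, whose product is best known on duct cells, had 11, 3 and 4 counts in saline and 3, 4 and 3 after cerulein. Its levels of 0.676 to 1.49 CPM in saline lay above the 0.355 to 0.468 CPM after cerulein, at counts too low for the filter. With no filter on low counts its log2 fold change was -1.35 ± 0.77 (SE, adjusted p = 0.169, edgeR). The log2 ratio of Sctr to Vipr1 was higher by 1.59 after cerulein (exact permutation test, two-sided p = 0.1, adjusted p = 0.117), on 3 to 11 Sctr counts a library.

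The Gq alpha subunits carry the signal from the activated receptor to phospholipase C beta. Gnaq, at chr19:16132684-16388520, and Gna14, at chr19:16435667-16610818, are neighbours on the plus strand of chromosome 19 with 47146 bases between them, and Gna11 lies at chr10:81528724-81545162. Gnaq stood at 49.7, 50.01 and 58.1 CPM in saline and at 46.6, 49.1 and 54.2 CPM after cerulein, with overlapping groups. Its log2 fold change was -0.07 ± 0.15 (SE, adjusted p = 0.703, edgeR). Gna11 stood at 51.5, 61.5 and 67.9 CPM in saline and at 51.0, 48.0 and 45.1 CPM after cerulein. Every saline library was above every cerulein library, but saline replicate 1 and cerulein replicate 1 nearly met. The log2 fold change of Gna11 was -0.32 ± 0.15 (SE, adjusted p = 0.0870, edgeR). It passed the threshold without saline replicate 1, at -0.46 (adjusted p = 0.0134), and with upper-quartile factors, and it was above 0 with library size alone.

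Gna14, whose product is the Gq-class subunit with the narrower tissue range, did not follow its neighbour. It had 78, 117 and 64 counts in saline and 7, 15 and 17 counts after cerulein. The levels were 10.6, 26.4 and 16.5 CPM in saline and 0.828, 1.75 and 2.15 CPM after cerulein. The saline libraries spread more widely than for the other alpha subunits, with saline replicate 1 lowest, and no cerulein library came near them. Gna14 fell by 3.47 ± 0.41 on the log2 scale (SE, adjusted p = 2.15e-05, edgeR). The log2 ratio of Gna14 to Gnaq was -2.23, -0.92 and -1.81 in saline and -5.72, -4.76 and -4.62 after cerulein, a difference of -3.38. That of Gna11 to Gnaq differed by -0.25, with groups that overlapped. The exact permutation tests gave two-sided p = 0.1 and p = 0.2 (adjusted p = 0.117 and 0.2).

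Per kilobase of exon, Gna14 was 17.8% ± 6.29 of the summed alpha subunit counts in saline and 2.26% ± 0.97 after cerulein (SD, n = 3 each). Gna11 was 51.9% ± 2.73 and 57.9% ± 3.79, and Gnaq 30.3% ± 3.84 and 39.9% ± 2.88. Groups did not overlap for any of the 3 shares (exact permutation test, two-sided p = 0.1 each, adjusted p = 0.1). For Gna11 they nearly met, at 53.9% in saline replicate 3 and 54.0% in cerulein replicate 3, and p was 0.2 with lengths of the longest transcript (exact permutation test). The sum of the 3 genes was 23.7, 30.8 and 30.8 CPM per kilobase in saline and 20.2 to 20.4 CPM per kilobase after cerulein. With TMM scaling the mean of the sum was 28.7% lower after cerulein, with all 3 cerulein libraries below all 3 saline libraries (exact permutation test, two-sided p = 0.1). With library size alone, an alternative added after the values were seen, the direction turned, to 22.9 ± 1.19 in saline and 24.8 ± 1.94 CPM per kilobase after cerulein (SD, n = 3 each, exact permutation p = 0.2), so the direction of the sum depends on the scaling. Gna15, the remaining Gq-class alpha gene, known from blood cells, had 7, 0 and 2 counts in saline and 13, 4 and 8 after cerulein and was not tested.

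**Figure D3:**
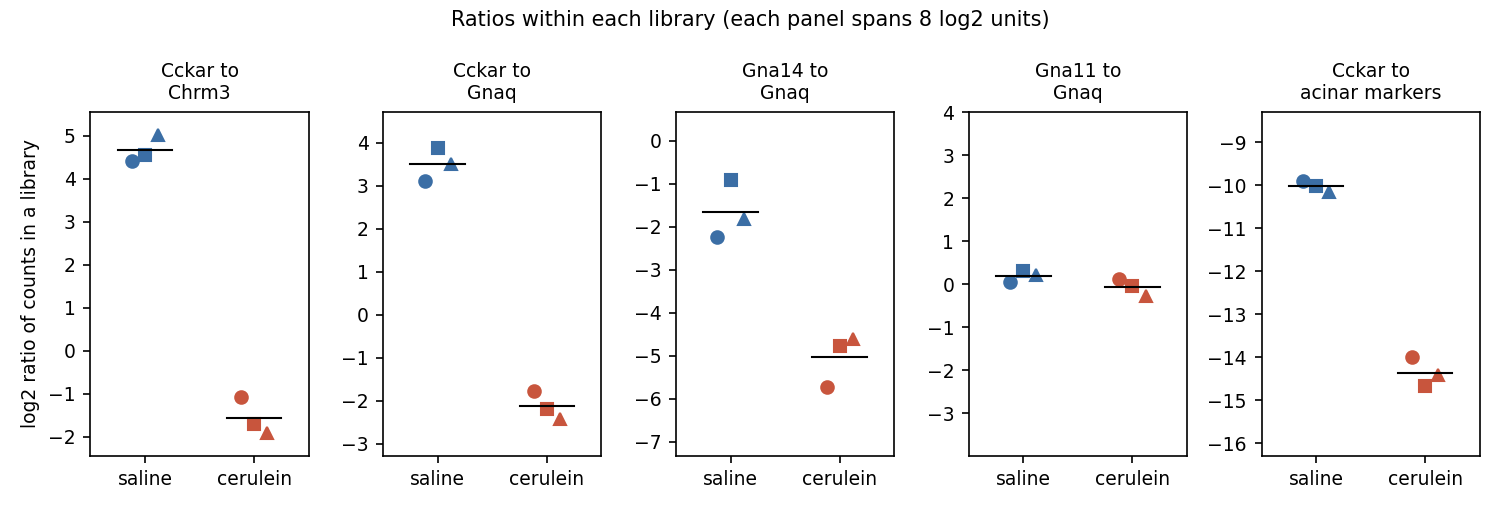
Log2 ratio of the counts of 2 genes within each library, or of Cckar to the summed acinar markers, with points for libraries, black lines for group means and the same span on each axis. Cckar to Cckbr and Sctr to Vipr1 are not plotted. The 4 plotted ratios that hold Cckar or Gna14 differ between the groups by -6.21 to -3.38 log2 units, and Gna11 to Gnaq differs by -0.25 with overlapping groups.

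The 250 bases before the RefSeq start are shown for both neighbours and for 2 further members, so that genes that fell (Gna14 and Vipr1) can be read beside genes that were not called (Gnaq and Gna11). They run 5′ to 3′ on the gene's strand, from RefSeq (GRCm38.p6), at chr19:16435417-16435666 for Gna14, chr9:121642466-121642715 for Vipr1, chr19:16132434-16132683 for Gnaq and chr10:81545163-81545412 for Gna11. Capitals mark matches to searched motifs. Of the 10 members, 7 had a promoter entry, and Cckar, Chrm1 and Sctr did not.
Gna14: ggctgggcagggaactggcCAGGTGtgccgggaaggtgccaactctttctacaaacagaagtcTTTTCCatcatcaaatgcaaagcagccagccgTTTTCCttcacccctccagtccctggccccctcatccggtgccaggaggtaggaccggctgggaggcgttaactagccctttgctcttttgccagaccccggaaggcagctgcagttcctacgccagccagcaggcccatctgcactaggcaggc
Vipr1: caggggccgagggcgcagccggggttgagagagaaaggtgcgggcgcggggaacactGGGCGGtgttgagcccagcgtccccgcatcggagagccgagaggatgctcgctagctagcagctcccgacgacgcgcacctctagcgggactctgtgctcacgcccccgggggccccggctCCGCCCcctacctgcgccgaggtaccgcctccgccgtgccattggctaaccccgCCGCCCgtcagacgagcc
Gnaq: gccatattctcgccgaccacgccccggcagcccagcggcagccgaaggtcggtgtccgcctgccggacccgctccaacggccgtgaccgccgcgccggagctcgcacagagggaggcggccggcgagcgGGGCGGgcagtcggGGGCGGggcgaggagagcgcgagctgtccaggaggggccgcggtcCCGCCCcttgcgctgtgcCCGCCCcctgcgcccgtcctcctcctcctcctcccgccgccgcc
Gna11: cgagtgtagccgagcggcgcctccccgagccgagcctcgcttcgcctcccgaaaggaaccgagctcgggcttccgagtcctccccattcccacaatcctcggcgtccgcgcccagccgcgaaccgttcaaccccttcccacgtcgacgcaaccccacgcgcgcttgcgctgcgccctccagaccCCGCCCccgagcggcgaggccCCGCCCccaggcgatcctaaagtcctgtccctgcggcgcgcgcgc

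Both strands were searched for 7 motifs. These were the AP-1 site TGACTCA, the cAMP response element TGACGTCA, the TC box TTTCCCA bound by the acinar complex PTF1, the E box CACCTG, the TATA box TATAAA, the GC box GGGCGG and the NFAT core GGAAAA. The NFAT core and the TC box can overlap, and no match overlapped another in the 4 sequences shown. The sequence of Gnaq held 4 GC boxes, that of Vipr1 3 and that of Gna11 2, where 32.7% of 32817 promoter windows of this length hold at least 1. The Gna14 window held none, but had 1 E box, found in 17.2% of windows, and 2 NFAT cores, found in 20.4%. Of the members whose windows are not shown, Plcb1 had 1 TC box, found in 6.81% of windows, and 1 GC box. Cckbr had 1 E box, and Chrm3 had no match. The windows of Gnaq and Gna11 held 37 and 38 CpG dinucleotides, and that of Gna14 held 7, against a median of 6 over all windows. The windows of Vipr1, Plcb1, Chrm3 and Cckbr held 30, 22, 10 and 9. The Chrm3 window, chr13:10360804-10361053, lay inside the gene coordinates given above. That of Cckbr, chr7:105425481-105425730, ran past the gene start given above. Their counts are therefore not of sequence wholly upstream of those starts. A match describes the letters of its window and is not a binding site.

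Plcb1, at chr2:134786164-135475258, encodes phospholipase C beta 1, which Gq alpha subunits activate. Its levels were 21.1, 28.6 and 27.0 CPM in saline and 6.86, 10.9 and 8.84 CPM after cerulein. All saline libraries lay above all cerulein libraries. Plcb1 fell by 1.52 ± 0.21 on the log2 scale (SE, adjusted p = 5.43e-05, edgeR). Its beta isoforms did not move as one. Plcb4 fell by 1.45 ± 0.19, from 25.7 to 30.6 CPM in saline to 8.21 to 11.8 CPM after cerulein. Plcb3 rose by 0.84 ± 0.18, from 15.2 to 20.7 CPM to 27.5 to 36.1 CPM, with adjusted p = 0.00153 in edgeR. Plcb2, the isoform of blood cells, had a log2 fold change of 0.04 ± 0.49 (adjusted p = 0.954, edgeR).

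Set against the summed acinar markers in the same library, the members divided again. This comparison was added after the values were seen and has no test. The difference in the log2 ratio to that sum, cerulein minus saline, was -4.34 for Cckar, -2.09 for Gna14, -1.52 for Vipr1 and -0.18 for Plcb1. It was 1.88 for Chrm3, 1.29 for Gnaq and 1.04 for Gna11. The within-group SD of these ratios lay between 0.12 and 0.67, so that the change of Plcb1 was within the spread of its saline libraries, 0.27. Of the 17 acinar markers, 9 had a lower log2 fold change than Plcb1, 2 a lower one than Vipr1 and 1 a lower one than Gna14.

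**Figure D4:**
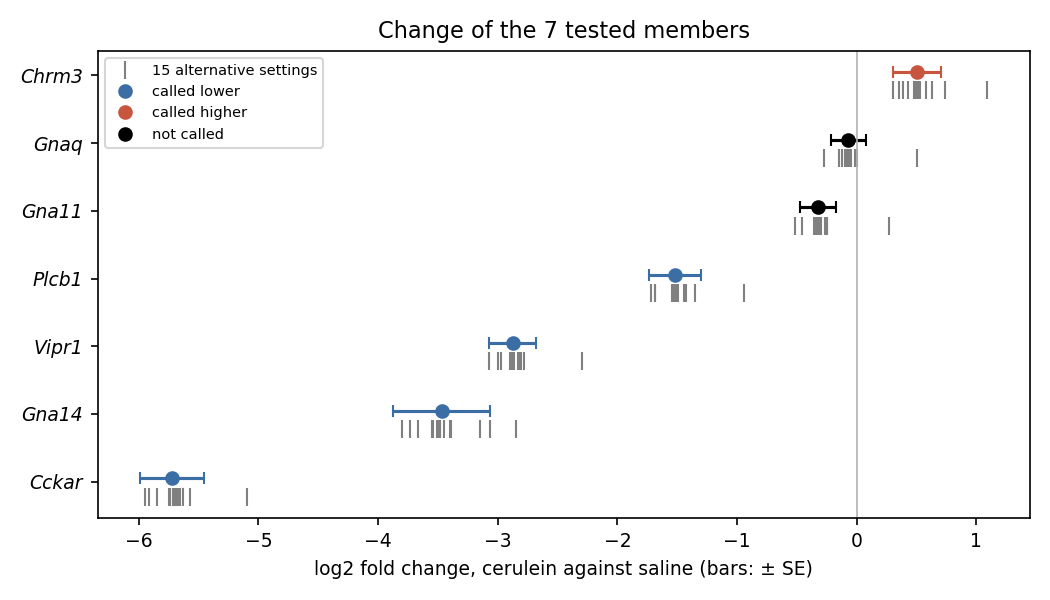
Log2 fold change of the 7 tested genes, cerulein against saline, with dots and bars for the estimate and its SE and grey ticks for 15 alternative settings. Cckar, Gna14, Vipr1 and Plcb1 stay below 0 and Chrm3 above 0 in every setting, while the ticks of Gnaq and Gna11 fall on both sides of 0.

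Ordered by level per length, Cckar led the members in saline at 165 ± 42.5 CPM per kilobase (SD, n = 3). Gna11 followed at 14.7 ± 2.02 and Gnaq at 8.51 ± 0.77 CPM per kilobase. Vipr1, Gna14 and Chrm3 came next at 5.87, 5.18 and 3.82 CPM per kilobase, and neighbours among these overlapped. Plcb1 stood at 2.30 CPM per kilobase, apart from those above and below, and Sctr and Chrm1 overlapped at 0.53 and 0.52. Cckbr had the lowest mean, 0.17 CPM per kilobase, but its libraries overlapped those of Chrm1, and without saline replicate 1 its mean was 0.039. After cerulein, Gna11 led at 11.7 ± 0.72 CPM per kilobase, before Gnaq at 8.08 ± 0.62, Chrm3 at 5.40 ± 0.77 and Cckar at 3.12 ± 0.51, with no overlap between neighbours. Plcb1 and Vipr1, at 0.80 and 0.79 CPM per kilobase, did not differ beyond their spread. Cckbr stood at 0.49 and Gna14 at 0.46 CPM per kilobase, and Sctr and Chrm1 came last at 0.20 and 0.10.

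The genes whose levels over the 6 libraries ran most nearly like those of Cckar were 1810018F18Rik, Amy2a1, Cldn10, Slc7a8 and Acot1, among the 5799 genes whose log2 CPM averaged 4 or more. Likeness was the root mean square difference between log2 CPM values centred on each gene's mean, which was 0.33 for 1810018F18Rik and 0.54 to 0.63 for the others. The log2 fold changes of these 5 lay between -6.38 and -4.66. Slc7a8, an amino acid transporter gene, went from 433 to 727 CPM in saline to 21.2 to 23.5 CPM after cerulein. Cldn10, a claudin gene of tight junctions, went from 46.0 to 55.0 CPM to 0.710 to 1.89 CPM. For Chrm3 the nearest were Hn1l, H2afx and Cyb561, at 0.067 to 0.074, and their log2 fold changes were 0.43, 0.59 and 0.57. With groups this far apart, likeness to Cckar rests mainly on the size of the fall.

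The remaining genes of secretagogue signalling were counted in 7 lists, to be read against the shares called over all genes tested and their median log2 fold change of -0.00091. Among 30 other receptors of acinar and duct secretion, 14 were tested, of which 5 fell, 3 rose and 6 were not called, with a median of -0.58. With library size alone this median was -0.0018, where that of all genes tested was 0.56. Vipr2, the second receptor for vasoactive intestinal peptide, fell by 3.01 ± 0.22, from 33.6, 43.7 and 42.2 CPM to 3.55, 5.15 and 6.06 CPM. Ptger3, a prostaglandin E2 receptor gene, fell by 3.22 ± 0.26, from 366 to 617 CPM to 40.6 to 63.6 CPM. In the other direction, F2rl1, which encodes the trypsin-activated receptor PAR2, rose by 2.69 ± 0.20, from 4.37 to 5.82 CPM to 30.7 to 39.3 CPM. P2ry2, a Gq-coupled receptor for ATP and UTP, rose by 2.85 ± 0.35, from 0.676 to 2.57 CPM to 11.8 to 16.9 CPM. Adjusted p in edgeR was at most 1.91e-05 for these 4 receptors, which were named for the smallest p in the list. Groups did not overlap for 11 of the 14 tested genes of the list, these 4 among them, against 63.0% of all genes tested. The other called receptors are named after their values were seen. Grpr, for gastrin-releasing peptide, stood at 2.31 to 7.86 CPM in saline and 0.117 to 0.126 CPM after cerulein, and Adrb1, a beta adrenergic receptor gene, at 5.01 to 5.66 and 0 to 0.710 CPM. Glp1r, the receptor gene for glucagon-like peptide 1, fell by 1.67 ± 0.26, and F2r, for the thrombin receptor PAR1, rose by 0.69 ± 0.27 (adjusted p = 0.0455, edgeR). The call of F2r was lost in 9 of 15 alternatives, leaving 2 receptors higher, among them the replicate block, DESeq2, upper-quartile factors and 5 of the 6 fits with 1 library left out, saline replicate 1 included.

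Of 16 genes for secretagogue peptides and acetylcholine handling, 5 were tested, with 2 lower and 1 higher. Tac1, which encodes the peptide substance P, had no count in the saline libraries and 148, 212 and 68 counts after cerulein. Against a floor of 3 counts over the saline group it was at least 90.0-fold higher. Gal, the galanin gene, fell by 1.44 ± 0.26, and Bche, encoding butyrylcholinesterase, fell by 3.22 ± 0.38. Nmb, the neuromedin B gene, was not called, at -0.46 ± 0.39. The median of the tested genes was -0.46, also with Tac1 at its bound. With library size alone it was 0.05, where that of all genes tested was 0.56. Cck and Sct, named after their values were seen, which encode cholecystokinin and secretin and are expressed mainly in gut endocrine cells, were at 0 in all 6 libraries and count as not measured. The 10 nerve and glia markers summed to 4.33 to 7.46 CPM in saline and 12.9 to 15.03 CPM after cerulein, 2 of 3 tested were called higher and Elavl3, also named after its value was seen, was at 0. Their part in the level of Tac1 was not tested.

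Among 24 other G protein genes, 21 were tested, with 8 higher, 1 lower and a median log2 fold change of 0.06. Ric8a, a chaperone of Gq, Gi and G12 class alpha subunits, rose by 1.94 ± 0.18, from 38.7, 58.1 and 42.2 CPM to 162, 190 and 182 CPM. Gna13 and Gna12, the alpha subunit genes of the G12 class, rose by 1.46 ± 0.16 and 1.46 ± 0.19, and Gnai3, an inhibitory alpha subunit gene, by 1.35 ± 0.17. Adjusted p in edgeR was at most 3.50e-05 for these 4 genes. Gnb5, the beta subunit that pairs with some RGS proteins and named after its value was seen, fell by 1.02 ± 0.35 (adjusted p = 0.0251, edgeR). The call of Gnb5 was lost in 5 of 15 alternatives, among them the fit without saline replicate 1. The summed level of the list was 704 to 828 CPM in saline and 1282 to 1448 CPM after cerulein. Library size alone called none of the list lower, and upper-quartile factors called 3. None was called lower when saline replicate 3, or either of cerulein replicates 1 and 3, was left out.

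Of 13 other phospholipase C genes, 11 were tested, with 3 higher and 4 lower. Besides the beta isoforms, Plcg2, an isoform of blood cells, rose by 1.72 ± 0.29 and Plcd1 by 0.90 ± 0.18, and Plcl2, which encodes a catalytically inactive relative, fell by 0.84 ± 0.17. The fall of Plcl2 was lost with library size alone, where 1 of the list was called lower. The other 2 called lower, named after their values were seen, were Plcg1 at -0.71 ± 0.15 and Plch1 at -0.995 ± 0.33, whose calls were lost in 1 and 5 of 15 alternatives. Protein kinase C, protein kinase D and diacylglycerol kinase genes with the MARCKS substrates numbered 23, of which 20 were tested, with 7 higher, 3 lower and a median of 0.25, which was 0.48 without saline replicate 1. Prkcd, the kinase isoform known for its part in pancreatitis models, rose by 1.33 ± 0.16, from 17.6 to 22.5 CPM to 47.5 to 53.7 CPM. The genes of the kinase substrates MARCKS and MARCKSL1 rose by 1.37 ± 0.17 and 2.47 ± 0.25, and Dgkz, which encodes an enzyme that removes diacylglycerol, rose by 1.32 ± 0.15. The 3 called lower, named after their values were seen, were Dgkg at -1.19 ± 0.25, Prkce at -1.10 ± 0.19 and Prkcz at -0.65 ± 0.26. The call of Prkcz was lost in 7 of 15 alternatives. With library size alone 9 of the list were higher and none lower.

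Proteins that end receptor signalling include RGS proteins, which speed GTP hydrolysis by alpha subunits, receptor kinases and arrestins. Of 26 such genes, 18 were tested, with 7 higher, 3 lower and a median of 0.03, which was -0.06 without saline replicate 1. Rgs2, whose product acts preferentially on Gq, rose by 3.41 ± 0.24 (SE, adjusted p = 2.05e-07, edgeR). Its levels were 12.9, 6.31 and 11.3 CPM in saline and 97.0, 134 and 99.3 CPM after cerulein, with no overlap. Rgs19, for a protein of the same family, rose by 1.60 ± 0.22. Rgs11 fell by 3.76 ± 0.17 (SE, adjusted p = 9.70e-09, edgeR), from 237, 185 and 194 CPM to 15.5, 14.9 and 15.03 CPM, with no overlap. Gpsm1, which encodes a modulator of Gi alpha subunits, fell by 2.67 ± 0.26, and Arrb1, an arrestin gene named after its value was seen, fell by 0.48 ± 0.16, a call lost in 5 of 15 alternatives, with a change of sign (0.11) with library size alone.

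The cyclic AMP arm, on which SCTR and VIPR1 act, held 29 genes, of which 25 were tested, with 7 higher, 8 lower and a median of 0.11, which was 0.36 without saline replicate 1. Crem, a cyclic AMP-responsive transcription factor gene, rose by 2.69 ± 0.25, from 4.51 to 8.67 CPM to 34.2 to 49.7 CPM. Prkar1b, a regulatory subunit gene of protein kinase A, rose by 2.53 ± 0.24. Pde4a, which encodes an enzyme that breaks down cyclic AMP, fell by 2.15 ± 0.17, from 32.0 to 33.9 CPM to 6.90 to 7.93 CPM. Akap1, for an anchoring protein of that kinase, fell by 1.86 ± 0.16. With library size alone the list had 11 higher and 3 lower, and with upper-quartile factors 5 higher and 9 lower.

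**Figure D5:**
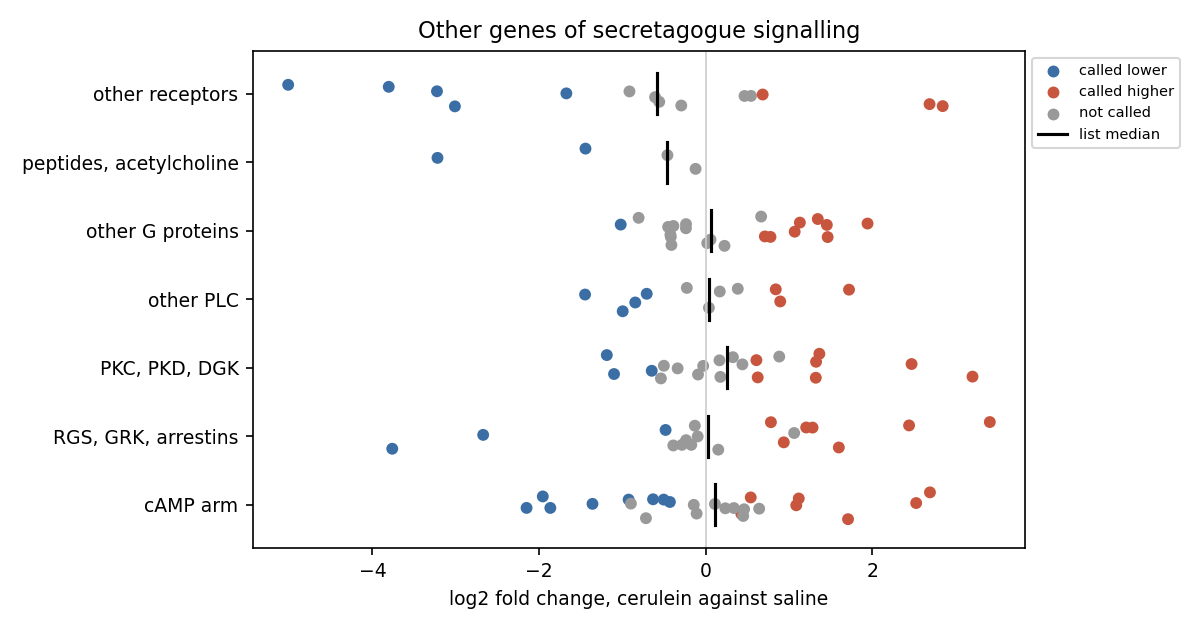
Log2 fold change, cerulein against saline, of the tested genes in 7 lists of secretagogue signalling, with 1 point a gene, colour for the call and a black line for the list median. Points lie on both sides of 0 in 6 of the 7 lists, and in the peptide list, where Tac1 (0 in saline) is left out, all 4 lie below 0.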

How the data were processed

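RNA from 6 mouse pancreas samples was sequenced, 3 per group. Per the labels' protocols, TRIzol was used on tissue stored in RNAlater, and the library kit was TruSeq Stranded mRNA. The values are raw counts of reads for each gene, as deposited by the authors. Trimmomatic, STAR, HTSeq and the build mm10 appear in the submitters' processing notes. No version, annotation or strand setting for the counting was given in the sources used here. Reads of overlapping or near-identical genes could therefore be split or lost.

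Libraries were scaled by TMM in edgeR 4.0.16 (R 4.3.3) and genes were filtered with filterByExpr (minimum count 10, minimum total 15). A quasi-likelihood F test with robust dispersion compared the groups, with Benjamini-Hochberg adjustment over 12441 genes. The fit was run on simulated counts in which few genes changed, as many up as down. Those counts differ from these data in that respect, so the run does not test the scaling used here. Ratios took 0.5 added to each count and a two-sided exact permutation test, adjusted over 7 ratios. Lengths were GENCODE M21 exon unions. Coordinates and promoter sequences are from RefSeq GRCm38.p6, matched by symbol for 32882 of 36333 rows. There were 15 alternatives, among them limma 3.58.1 and DESeq2 1.42.0.

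The members and lists were chosen with earlier results of these data known. Named genes are the 10 members, up to 4 of each list with the smallest p, the remaining beta isoforms and Gna15, and the 5 and 3 genes nearest to Cckar and Chrm3. Genes named outside this rule are marked in the text.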

Additional observations from a re-analysis of the deposited data

How the results depend on the processing

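Cckar, Vipr1, Gna14 and Plcb1 were called lower in all 15 alternatives, with log2 fold changes of -5.95 to -5.10, -3.07 to -2.29, -3.80 to -2.85 and -1.72 to -0.94. Chrm3 lost its call with RLE factors (0.50), upper-quartile factors (0.31), scaling without digestive enzyme genes (0.48) and DESeq2 (0.49), which left 0 members called higher in each. Leaving out 1 library gave 0.35 to 0.74 for Chrm3 and 0 to 1 members called higher, and without saline replicate 1 the member called higher was Cckbr. Gnaq changed sign with library size alone (0.51) and with no filter on low counts (0.00080). Gna11 changed sign with library size alone (0.27), was called lower with upper-quartile factors (-0.52), and lay between -0.46 and -0.25 with 1 library left out. Library size alone called 1449 genes lower and moved the median of all genes by 0.56, and upper-quartile factors moved it by -0.20. The summed alpha subunit level, cerulein minus saline, turned from -8.14 to 1.91 CPM per kilobase with library size alone, and lay between -10.5 and -6.95 with 1 library left out. Library size alone also put the medians of the 7 pathway lists between -0.0018 and 0.80, beside 0.56 for all genes tested. The causes of these changes were not tested. All 7 ratios and the 3 alpha subunit shares kept their direction in every alternative run. Chrm1 was called lower in 6 alternatives, those in which it was tested.

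Whether the replicate numbers pair the samples could not be decided. Deviations from the group means correlated at 0.17, 0.26 and -0.22 for same-numbered saline and cerulein samples. For differently numbered samples they correlated at -0.37 to 0.19. With 3 samples in a group, deviations from the group mean are tied to each other, so these values cannot show or exclude pairing. A fit with the replicate block called 3673 genes higher and 3401 lower, and of the members 1 higher and 4 lower. The low counts of Cckbr, Chrm1 and Sctr, at 45 or fewer in a group, limit what can be said of them.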
